A study of Mus musculus with 2 samples.

Results

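Mature luminal cells of the adult mouse mammary gland were compared by how much *Areg* they held, within 1 single-cell library. Cells of the total epithelial library were gated by their own counts, with *Prlr*, *Stc2* and *Gpx3* summing to 10 or more and with both the basal sum (*Krt5*, *Krt14* and *Acta2*) and the progenitor sum (*Trf*, *Csn3* and *Elf5*) under 8. The gate held 976 of 3302 cells, 29.6% of the library. Gated cells were ranked by *Areg* counts over the total count of the cell, the highest 25% (244 cells) was called *Areg*-high, and the 229 cells without an *Areg* count formed the 0-*Areg* group. At the edges of the gate, 28 passing cells had a mature luminal sum of 10 and 18 cells with a sum of 9 stayed outside. Both groups were thus selected on measured values, so the *Areg* counts and the 9 genes of the gate are a description and not a finding.

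The study profiled adult FVB/NJ mice without treatment, as 1 Chromium library of total mammary epithelium and 1 of sorted basal cells, 8073 cells in all from 8 mice. Total epithelium was sorted as Lin-CD24+, and the *Areg*-high and 0-*Areg* cells came from the same pool, sort and capture. The cells carry no label for the mouse or the stage of the estrous cycle, so neither can be told apart from the *Areg* level. No replicate library bears on the comparison, and cells are not replicates. No p-value or standard error is therefore given, and the intervals printed are 95% intervals that cover counting error only.

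*Areg* encodes amphiregulin, a ligand of the epidermal growth factor receptor that is made as a membrane-bound precursor and released by proteases such as ADAM17. In the mammary gland it is an estrogen target of the hormone-sensing luminal cells and acts on neighbouring stroma, through which it drives the elongation of ducts at puberty. Mature luminal cells carry the estrogen and progesterone receptors and pass hormone signals to their neighbours by such secreted factors, among them RANKL and WNT4.

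The *Areg* gene lies on chromosome 5, on the plus strand from base 91139599 to 91148432 of GRCm38. Its upstream stretch is shown because the gene was used to split the cells. The 250 bases before the RefSeq start, at chr5:91139349-91139598 on the plus strand of GRCm38.p6, are printed 5′ to 3′ with matches to the cAMP response element TGACGTCA, to its half-site TGACG on either strand and to the TATA motif TATAAA in capitals.
Areg: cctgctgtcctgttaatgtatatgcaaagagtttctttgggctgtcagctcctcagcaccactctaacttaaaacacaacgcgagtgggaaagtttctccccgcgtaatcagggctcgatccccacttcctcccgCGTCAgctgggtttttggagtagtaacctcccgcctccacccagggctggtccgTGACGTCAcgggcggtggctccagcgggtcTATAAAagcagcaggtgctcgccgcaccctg
The full element lay 61 to 54 bases before the start, a further half-site on the minus strand 115 to 111 bases before it, and TATAAA 31 to 26 bases before it. The AP-1 motif TGANTCA was not in this window. These matches are letters in a reference sequence, and no binding was measured.

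*Areg* itself spread widely among the gated cells. *Areg*-high cells held 5 to 94 *Areg* counts with a median of 29, which is 48.7 to 311 per 10000 counts of the cell with a median of 73.1. The boundary of the *Areg*-high group fell in a continuous range, since the lowest *Areg*-high cell had 5 counts of 1026 (48.7 per 10000) and the next cell below had 20 of 4137 (48.3 per 10000). Of the gated cells between the groups, 107 had exactly 1 *Areg* count. A 0-*Areg* cell of median depth could have held up to 11.6 per 10000 within the limit that a count of 0 allows (3 counts), so the group had low or no *Areg* rather than shown absence. *Areg* was at 3346 counts per 1000000 (CPM) in all gated cells, against 21.1 CPM in 1194 basal-gated and 31.0 CPM in 657 progenitor-gated cells. The 475 cells of the library in none of the 3 gates held 1961 *Areg* counts (1199 CPM) in 219 cells, so *Areg* was not limited to the gate. These 475 include cells with a mature luminal sum of 10 or more that failed on the basal sum (28) or the progenitor sum (155). They also include 18 cells with a mature luminal sum of 9. How the *Areg* counts divide among the 475 cells was not tested.

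**Figure D1:**
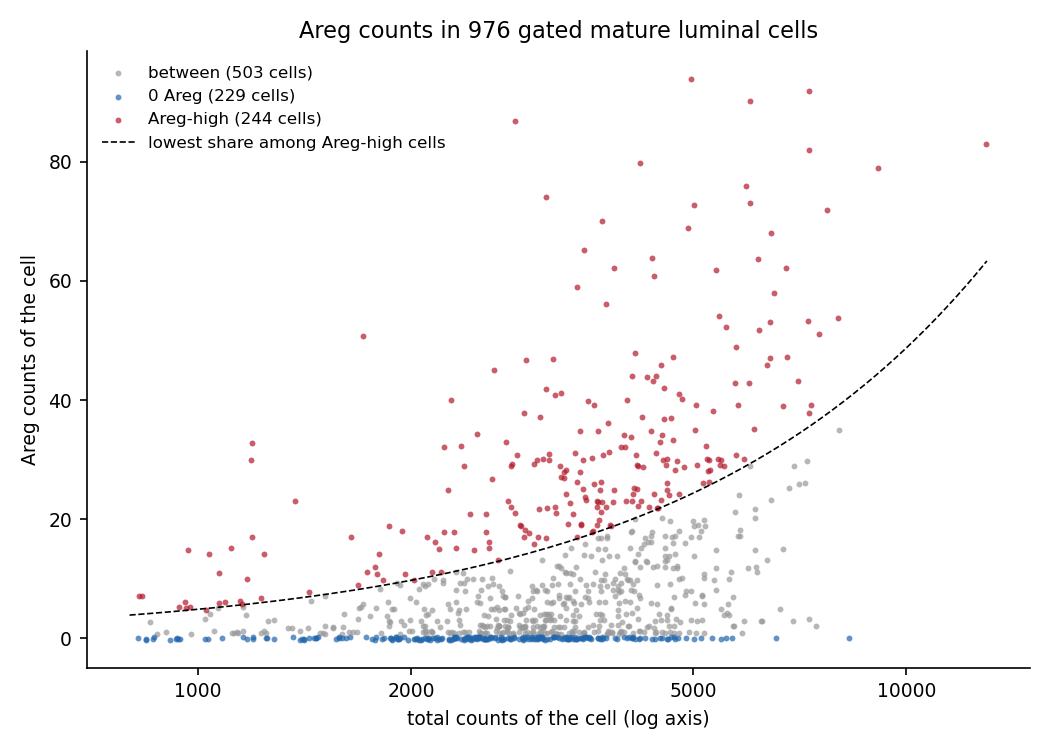
Areg counts (vertical axis, with a small random offset to separate points) against the total counts of each of the 976 gated cells (horizontal log axis). The 244 Areg-high cells lie on or above the dashed line of the lowest share among them, 48.7 per 10000, and the 229 cells at 0 spread over the whole depth range up to 8315 counts.

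Depth differed with the *Areg* level. The median total was 3666.5 counts in *Areg*-high cells and 2581 in 0-*Areg* cells, so a cell at 0 was also shallower. Each *Areg*-high cell was therefore paired with a 0-*Areg* cell whose total was within 10%, which gave 170 pairs with median totals of 3183 and 2991 counts and ranges of 826 to 8014 and 823 to 8315. Counts were summed over each side of the pairs and expressed as CPM of the total without *Areg*. A gene was measured when both sides together held at least 50 counts, and it was called higher or lower when the ratio of CPM was 1.5-fold or more. In the paired cells mitochondrial genes took 0.340% of counts in *Areg*-high and 0.316% in 0-*Areg* cells, and immediate-early genes 3.79% and 4.29%.

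The label of the gate did not hold for every cell. Of the 229 0-*Areg* cells, 12 had fewer than 10 counts of the luminal keratins *Krt8*, *Krt18* and *Krt19* together, while none of the 244 *Areg*-high cells did. In 10 of the 12, at least 3 counts fell on 6 fibroblast genes (*Col1a1*, *Col1a2*, *Col3a1*, *Lum*, *Pdgfra* and *Fbln1*), with a median of 25.5 and a maximum of 187 over the 12 cells. No other 0-*Areg* or *Areg*-high cell had more than 1 such count. These cells passed the gate mainly through *Gpx3*, a secreted glutathione peroxidase, of which they held 9 to 83 counts, and 6 of them had no *Prlr* or *Stc2* at all. All 12 were in the paired set. The comparison is therefore given for all gated cells and again for keratin-positive cells (*Krt8*, *Krt18* and *Krt19* summing to 10 or more), a step chosen after these cells were seen.

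**Figure D2:**
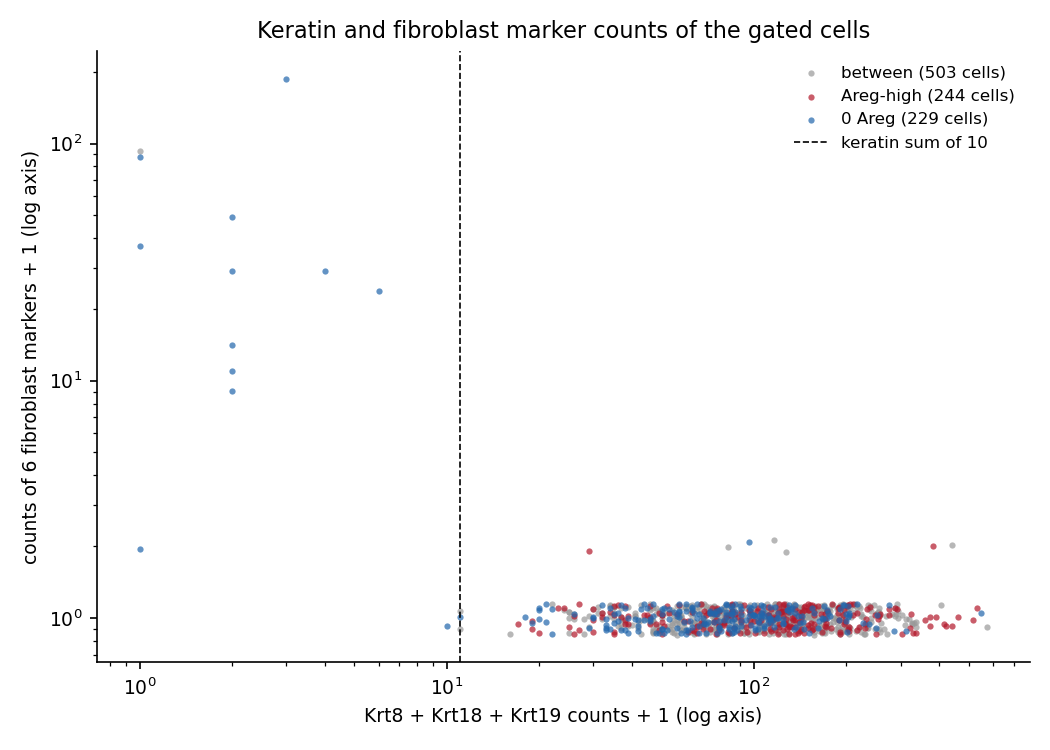
Counts of 6 fibroblast markers plus 1 (vertical log axis, small random offset) against Krt8, Krt18 and Krt19 counts plus 1 (horizontal log axis) in the 976 gated cells, with the dashed line at a keratin sum of 10. The points at the upper left are the keratin-low cells, 12 of the 0-Areg group and 1 from between the groups, and no Areg-high cell is among them.

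With all gated cells, 3043 genes were measured, of which 170 (5.59%) were higher in *Areg*-high cells and 269 (8.84%) were lower. The lower genes with the most extreme ratios came from the keratin-low cells. Of the 15 lower genes whose intervals lay farthest from 1, *Igfbp6*, *Col3a1*, *Sfrp2*, *Clec3b*, *Pi16*, *Tnfaip6*, *Col1a1*, *Has1*, *Mfap5*, *Ptx3*, *Ccl7* and *Col1a2* had all of their 0-*Areg* counts in the 12 keratin-low cells, and *Serpinf1* had 86 of 87. *Col3a1*, a fibrillar collagen of fibroblasts, had 226 counts in the 0-*Areg* cells and 1 in the *Areg*-high cells. The remaining 2 of the 15, *Ctsj* and *Cfd*, rested on single keratin-positive cells and are described below.

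In keratin-positive cells the split gave 240 *Areg*-high and 217 0-*Areg* cells among 963, and 163 pairs with median totals of 3171 and 2983 counts. Here 2924 genes were measured, 176 (6.02%) were higher and 224 (7.66%) were lower in *Areg*-high cells. Of the 170 higher genes of the first comparison 144 (84.7%) were higher here too, which is 81.8% of the 176, and of its 269 lower genes 179 (66.5%) were lower here, 79.9% of the 224. Among the 15 genes named in each direction, 13 of the higher but only 2 of the lower were shared between the comparisons. Values below are from the keratin-positive pairs unless stated.

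*Upk3a* and *Aoc1* were higher in *Areg*-high cells. *Upk3a*, a uroplakin of the apical membrane of urothelium, had 68 counts in *Areg*-high cells and 12 in 0-*Areg* cells, and ranged per cell from 0 to 22 and from 0 to 5 with medians of 0. The groups overlapped, because most cells of both had none. Its level was 137 against 24.6 CPM, a ratio of 5.54 (95% interval 2.98 to 11.3). *Aoc1*, a diamine oxidase that degrades histamine and polyamines, had 261 and 76 counts, up to 35 and 17 in a cell, and a ratio of 3.36 (2.59 to 4.40). It was found in 54 of 163 *Areg*-high and 23 of 163 0-*Areg* cells. Both genes were near 0 in the other lineages of the library, with *Aoc1* at 1.27 CPM in basal-gated and 5.17 CPM in progenitor-gated cells. It was detected in 0.251% and 1.37% of those cells, at median totals of 1777 and 2603 counts. Whether these counts are free RNA or come from the cells was not tested.

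The genes of 3 proteins that act outside or at the border of the cell in defence, *Sftpd*, *Reg3g* and *Il33*, were also higher. *Sftpd*, the collectin surfactant protein D, had 73 counts in *Areg*-high and 16 in 0-*Areg* cells (ratio 4.46, 2.57 to 8.22). *Reg3g*, an antimicrobial lectin, had 56 and 16 counts (3.42, 1.94 to 6.39), in 12 and 5 cells. Its log2 ratio was 1.78, but 0.20 when the *Areg*-high group was the highest 10% and 0.0072 when it was the highest 50%, so the call rested on where the group was divided. *Il33*, an alarmin cytokine of epithelial nuclei, had 69 and 18 counts (3.75, 2.21 to 6.70), in 21 and 12 cells. Each was carried by a small share of the cells, with a median of 0 in both groups, and the cells that had the gene often held several counts, up to 18 for *Reg3g* and 14 for *Il33* in an *Areg*-high cell. *Il33* was at 1.27 CPM in basal-gated and 0 in progenitor-gated cells, and *Reg3g* was at 0 in both.

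The remaining higher genes were more mixed in level. *Tgm2*, the tissue transglutaminase that cross-links proteins, had 412 and 188 counts, with medians of 1 count per cell in both groups and maxima of 21 and 17, and a ratio of 2.14 (1.80 to 2.56). *P4ha2*, a collagen prolyl hydroxylase subunit, had a ratio of 4.50 (2.55 to 8.47) and *Fam20a*, a pseudokinase of the secretory pathway, one of 3.29 (2.21 to 5.01). *Sec61a1*, the pore subunit of the translocon of the endoplasmic reticulum, had 72 and 24 counts (2.93, 1.83 to 4.87). The membrane glycoprotein gene *Cd200* had 433 and 227 counts (1.87, 1.59 to 2.20). The transcription factor gene *Mycl* had 46 and 8 (5.62, 2.63 to 13.8) and *Pir*, an iron-binding nuclear protein, 49 and 14 (3.42, 1.86 to 6.72). No cell held more than 7 *Mycl* counts.

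*Gsn* and *Tuba1a* were called higher only after the keratin-low cells were left out. *Gsn* encodes gelsolin, which severs actin filaments. It had 741 counts in *Areg*-high and 367 in 0-*Areg* cells, with medians of 3 and 1 per cell, and was 1.98-fold higher (1.74 to 2.24). With all gated cells it had 786 and 1444 counts, a ratio of 0.532 (0.487 to 0.580). *Tuba1a*, an alpha-tubulin, had 204 and 83 counts (2.40, 1.85 to 3.14), against 1.29 (1.05 to 1.60) with all gated cells. Both are also expressed outside the mature luminal gate, at 1020 CPM for *Gsn* and 1409 CPM for *Tuba1a* in basal-gated cells. The 13 basal markers summed to 89 and 82 counts in the paired *Areg*-high and 0-*Areg* cells, with *Acta2* at 27 and 22 and *Krt14* at 19 and 18. *Acta2*, *Krt14* and *Krt5* are the basal genes of the gate, so the gate itself held this sum low in both groups. Whether basal RNA adds to the *Gsn* and *Tuba1a* counts was not tested.

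*Fxyd2*, *Ang4* and *Ang5* were several-fold lower in *Areg*-high cells and were detected in a minority of cells. *Fxyd2*, the gamma subunit that modulates the sodium-potassium pump, had 28 counts in *Areg*-high and 173 in 0-*Areg* cells, found in 13 and 43 cells with up to 6 and 15 in a cell. It was 6.32-fold lower (4.22 to 9.78). *Ang4* and *Ang5*, members of the angiogenin family of secreted ribonucleases, had 26 against 117 and 17 against 84 counts, and were 4.60-fold (2.99 to 7.33) and 5.05-fold lower (2.97 to 9.08). The angiogenin genes are near-identical copies among which reads may be lost or shared, so how the counts divide between *Ang4* and *Ang5* is uncertain. All 3 genes were at or below 0.843 CPM in basal-gated cells and at or below 2.07 CPM in progenitor-gated cells. *Fxyd2* was detected in 0.168% of basal-gated and 0.457% of progenitor-gated cells.

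Broader differences in the same direction were found in genes that most 0-*Areg* cells carried. *Arg1*, arginase 1 of the urea cycle, had 307 and 707 counts, was found in 85 and 125 of 163 cells, and had medians of 1 and 2 and maxima of 25 and 48 per cell. It was 2.35-fold lower (2.06 to 2.70). *Gadd45a*, a growth arrest gene induced by DNA damage and other stress, had 132 and 319 counts (2.47-fold lower, 2.01 to 3.05). *Tmsb4x*, which encodes the actin-sequestering thymosin beta 4, was the most abundant of the named genes, with 1223 and 1959 counts, medians of 5 and 9 per cell, and was 1.64-fold lower (1.52 to 1.76). In 100 of the 163 pairs the 0-*Areg* cell held more *Tmsb4x* and in 50 the *Areg*-high cell did. The log2 ratio of *Tmsb4x* was -0.71, but short of 1.5-fold under 2 other settings. It was -0.50 for the highest 50% by *Areg* share and -0.55 in cells of at least 3000 counts.

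*Tm4sf1*, a membrane protein of the tetraspanin-like L6 family, had 136 and 280 counts and was 2.10-fold lower (1.71 to 2.60). It was abundant in the other lineages too, at 2092 CPM in progenitor-gated and 1192 CPM in basal-gated cells, as was *Tmsb4x* at 666 and 926 CPM. *Col8a1*, a short-chain collagen of basement membranes, had 37 and 94 counts (2.60-fold lower, 1.76 to 3.91). *Cited4*, a transcriptional co-activator, had 45 and 98 (2.23-fold lower, 1.55 to 3.24), and *Cyb5r3*, a cytochrome b5 reductase, 92 and 181 (2.01-fold lower, 1.56 to 2.61). The thyroid hormone receptor gene *Thra* had 13 and 41 counts, the ubiquitin ligase genes *Cdc16* and *Fbxo2* had 11 and 39 and 15 and 42, and these 3 rested on no more than 60 counts each over both groups. *Ctsj*, a placental cathepsin, owed 592 of its 622 counts to 1 cell, and *Cfd*, the adipokine complement factor D, all 74 to 1 cell, so that neither describes the 0-*Areg* group.

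**Figure D3:**
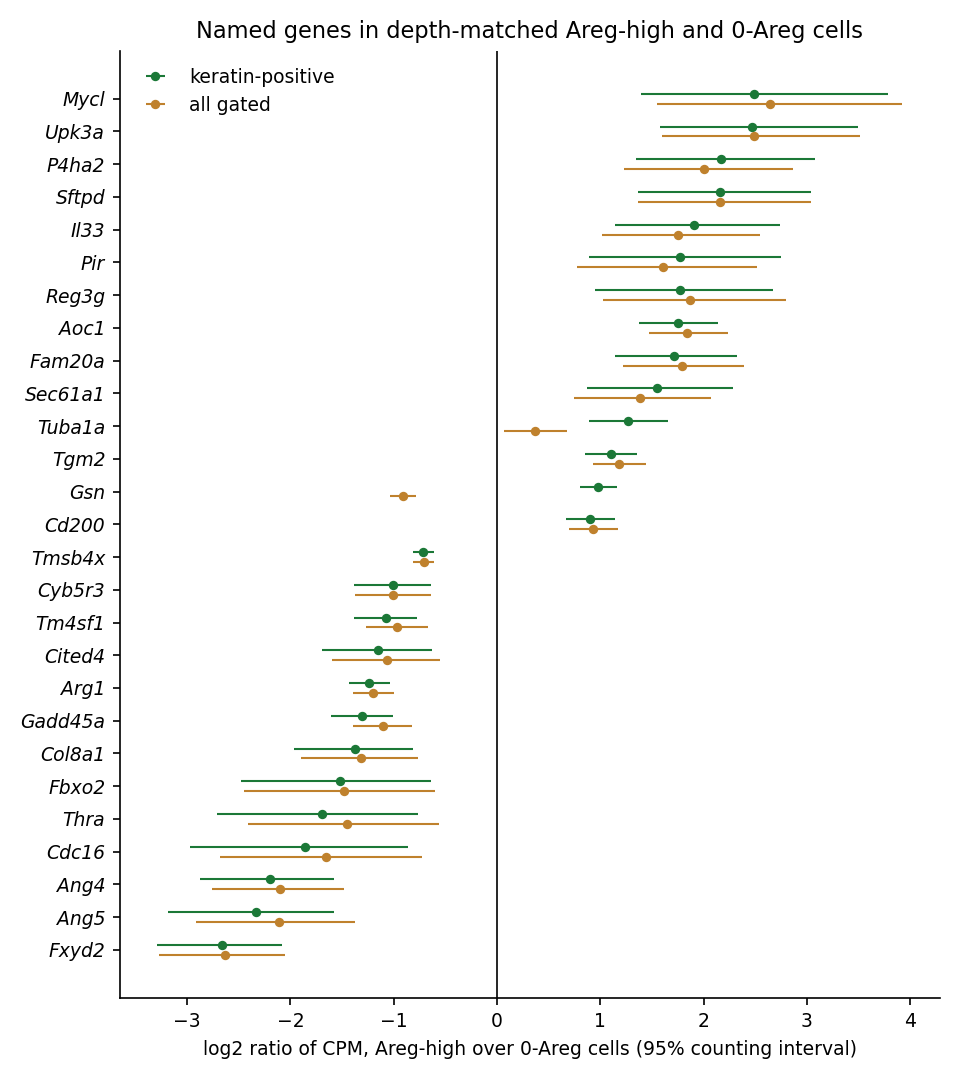
Log2 ratio of CPM in Areg-high over 0-Areg cells (horizontal axis) for the named genes described in the text that have counts in both groups, with 95% counting intervals, in keratin-positive pairs (green) and in all gated pairs (orange). Gsn lies on opposite sides of 0 in the populations and Tuba1a moves towards 0 with all gated cells, while the other genes keep their side.

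Levels were followed across all 963 keratin-positive cells by dividing them into cells at 0, the lower and the upper of the remaining *Areg*-positive cells (253 cells each) and the *Areg*-high cells. The median totals of these levels were 2589, 3098, 3525 and 3666.5 counts, so depth increased with the *Areg* level here. *Upk3a* was at 21.8, 68.6, 120 and 427 CPM over the 4 levels. The top step lay in 3 *Areg*-high cells with 277 *Upk3a* counts, without which the *Areg*-high level was 123 CPM, close to the level below it. The share of cells with *Upk3a* was 2.76%, 5.93% and 12.6% at the lower levels, and 36 of 240 *Areg*-high cells had it. Leaving out these cells was chosen after they were seen, and the paired cells, with at most 22 counts, did not include them. *Il33* followed with 30.1, 52.9, 100 and 195 CPM, and *Sftpd* with 28.5, 67.4, 130 and 188 CPM. *Aoc1* was not stepwise, at 139, 257, 210 and 613 CPM.

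The lower genes showed different shapes. *Fxyd2* was at 351, 96.2, 74.9 and 59.7 CPM and *Ang4* at 286, 77.0, 39.7 and 35.4 CPM, with most of the difference between cells at 0 and cells with any *Areg*. *Arg1*, at 1378, 994, 724 and 559 CPM, and *Gadd45a*, at 643, 557, 443 and 297 CPM, declined over all 4 levels. Of the 15 named higher genes 9 were stepwise upward over the levels, and of the 15 lower genes 10 were stepwise downward. The end levels hold the cells that chose these genes, so the order is partly fixed by the choice. The stepwise share over all measured genes was not counted, so these counts have nothing to be set against.

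The choice of the low group mattered for several genes. When the 0-*Areg* cells were replaced by the lowest *Areg*-positive cells (1 in 3 of them, 210 pairs), the log2 ratio of *Upk3a* was 1.78 against 2.47, that of *Il33* 1.62 against 1.91 and that of *Tgm2* 1.01 against 1.10. The log2 ratio of *Fxyd2* was -0.59 against -2.66 and that of *Ang4* -0.81 against -2.20, so that for these genes much of the difference lay between cells at 0 and cells with little *Areg*. *Pir* (-0.076) and *Cited4* (0.24) changed sign. The log2 ratios of *Tuba1a* (0.58), *Gsn* (0.55), *Cd200* (0.51), *Cyb5r3* (-0.56), *Tmsb4x* (-0.46), *Thra* (-0.24) and *Fbxo2* (-0.18) kept their sign but were no longer past 1.5-fold. *Col8a1* (-1.44 against -1.38) and *Tm4sf1* (-1.02 against -1.07) stayed within their counting intervals.

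**Figure D4:**
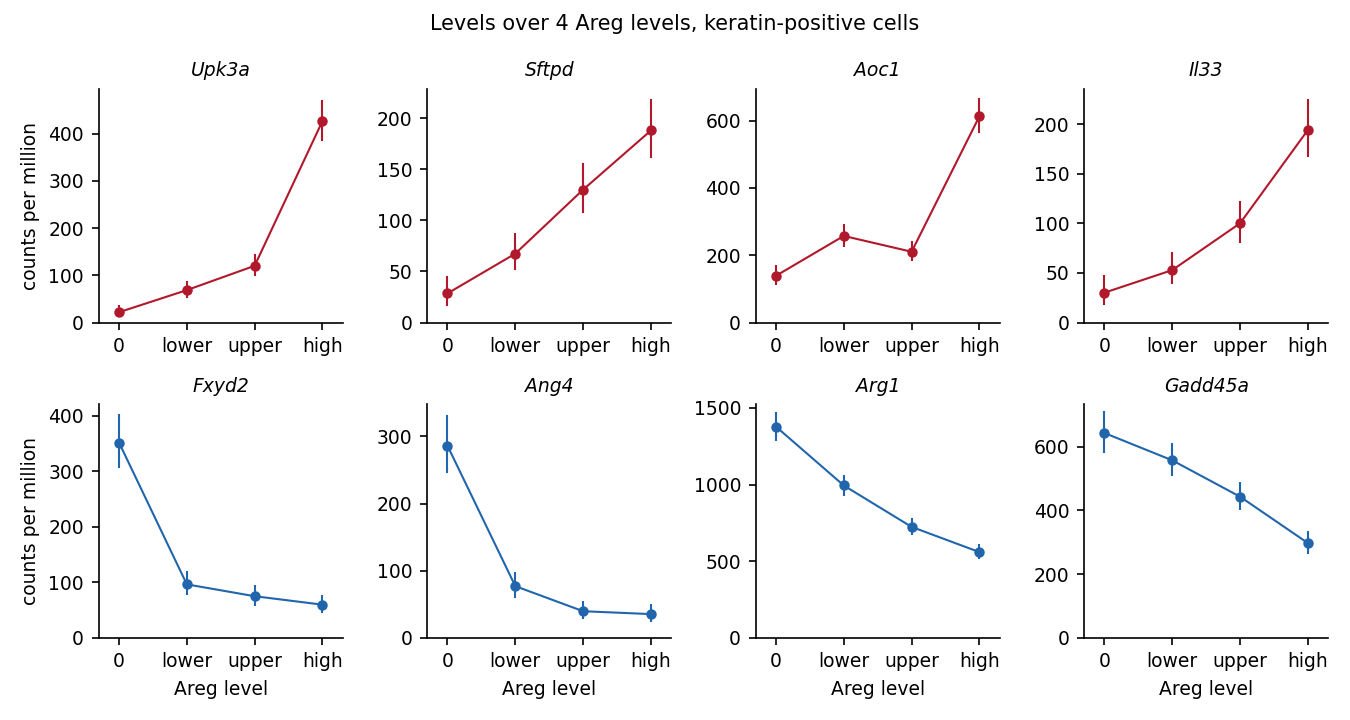
CPM (vertical axes, from 0) of 4 higher (red) and 4 lower (blue) genes at 4 Areg levels of the keratin-positive cells, with exact Poisson 95% intervals of the counts. Il33 climbs to the Areg-high cells, the top value of Upk3a rests on 3 cells (123 CPM without them), Fxyd2 and Ang4 drop between the cells at 0 and the next level, and Arg1 and Gadd45a decline throughout.

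The higher genes were detected in sets of cells that overlapped only in part. Among the 963 keratin-positive cells, *Upk3a* was detected in 89, *Aoc1* in 186, *Sftpd* in 99 and *Il33* in 108. *Aoc1* and *Il33* were found together in 36 cells, against 20.9 if the shares were multiplied, and *Upk3a* and *Il33* in 18 against 9.98. *Aoc1* and *Sftpd* met in 17 cells against 19.1, and *Upk3a* and *Sftpd* in 7 against 9.15. Some genes thus overlapped more than the product of their shares and others did not. All were named as higher in *Areg*-high cells, so some overlap above the product follows from that choice. Detection followed depth, since the median total was 4103 counts in cells with *Sftpd* and 3109 in cells without it. *Upk3a* was very uneven, with 49.0% of its 565 counts in 3 cells and 127 in the highest, whereas the top 3 cells held 11.3% of the *Aoc1* counts.

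The sparse lower genes met more often. *Ang4* was detected in 140 and *Ang5* in 123 of the 963 cells, and 90 cells had both, against 17.9 from the product of the shares, which is also where shared reads between the copies would show. *Fxyd2* was detected in 143 cells and met *Ang4* in 49 against 20.8. These genes were named because all were lower in *Areg*-high cells, so overlap above the product is partly fixed by that choice. Overlap within the 0-*Areg* cells alone was not tested. Of all keratin-positive 0-*Areg* cells 28.1% had *Fxyd2* and 30.9% had *Ang4*, against 9.17% and 7.50% of *Areg*-high cells. Cells with *Fxyd2* had a median of 3.37 *Areg* counts per 10000, and cells without it 19.2, at median totals of 3083 and 3235 counts. Detection of these genes did not follow depth in the same way, since the median total was 2908.5 counts in cells with *Ang4* and 3285 in cells without it.

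Other ligands of the EGF receptor family were examined because they share the receptor with amphiregulin, and several lie beside *Areg* on chromosome 5. Within 500 kb of *Areg*, *Epgn* (epigen, 91027464 to 91035215) had 16 counts in *Areg*-high and 1 in 0-*Areg* cells, a ratio of 15.7 (2.43 to 656), in 6 and 1 cells. *Btc* (betacellulin, 91357261 to 91402994) had 21 and 5 counts (4.11, 1.51 to 13.9), in 15 and 4 cells. Both fell short of the 50 counts required of a measured gene, and *Epgn* was concentrated, with 41.5% of its 130 counts in 3 of the 963 cells. *Ereg* (epiregulin), which lies between *Epgn* and *Areg*, had no count in any of the 963 cells. Over the 4 *Areg* levels *Epgn* was at 1.67, 40.9, 46.3 and 58.6 CPM and *Btc* at 10.0, 15.6, 23.1 and 32.0 CPM.

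Of the chemokine genes in that window, *Cxcl1*, a neutrophil attractant, had 47 and 19 counts (2.42, 1.39 to 4.37) and *Cxcl15* 622 and 518 (1.17, 1.04 to 1.32). *Cxcl2* had 5 and 6 (0.815, 0.197 to 3.21). Other neighbours had ratios under 1 with intervals that include 1. These were *Rassf6* with 21 and 27 counts (0.761, 0.409 to 1.40), *Mthfd2l* with 14 and 20 (0.685, 0.320 to 1.43) and *Parm1* with 5 and 7 (0.699, 0.175 to 2.56). With all gated cells *Cxcl1* had 48 and 156 counts and the direction was reversed (0.301, 0.213 to 0.418). In the keratin-positive pairs *Cxcl1* was found in 12 and 10 cells, so its difference lay in counts per cell and not in the number of cells. Receptors and sheddases of the family were sparse. *Erbb3* had 26 and 12 counts (2.12, 1.03 to 4.61), *Erbb2* 14 and 19, *Adam17* 8 and 13, and *Adam10*, the only measured member of the list of 18, 64 and 57 (1.10, 0.757 to 1.60). The 18 ligands, receptors and sheddases together had 191 and 153 counts (1.22, 0.982 to 1.52), with an interval that includes 1. The ERK feedback genes downstream of the receptor had 3 measured members of 14, none past 1.5-fold, with *Errfi1* at 95 and 90 counts, *Dusp6* at 41 and 50 and *Phlda1* at 77 and 61.

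Hormone receptors and lineage factors had a lower summed level in *Areg*-high cells, at 0.824-fold (0.757 to 0.896), but few members were called. *Cited1* made up most of these counts. Under the alternatives of pairing, scaling and grouping the log2 ratio of the sum stayed between -0.59 and -0.17. Of 17 listed genes outside the gate 7 were measured, none was higher and 1 was lower, against 6.02% and 7.66% of all measured genes, and their median log2 ratio was -0.27 against -0.03 over all measured genes. The progesterone receptor gene *Pgr* had 45 and 33 counts (1.33, 0.833 to 2.16) and the pioneer factor gene *Foxa1* 34 and 40 (0.832, 0.511 to 1.35), both with intervals that include 1. *Esr1*, the estrogen receptor alpha, had only 8 and 10 counts, and a difference in it was not detectable at this depth. *Gata3* had 158 and 160 counts (0.966, 0.770 to 1.21). *Tfap2b*, an AP-2 transcription factor, was the lower one with 40 and 65 counts (0.602, 0.396 to 0.906), and *Cited1*, a co-activator of the estrogen receptor, had 617 and 749 (0.806, 0.723 to 0.898).

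Among estrogen receptor targets 1 of 6 measured genes was higher, a count too small to set against the 6.02% of all measured genes. This was *Xbp1*, a transcription factor of secretory cells and of the unfolded protein response, with 437 and 271 counts (1.58, 1.35 to 1.84). *Ctsd* (cathepsin D) had 637 and 500 counts, *Ccnd1* (cyclin D1) 53 and 46 and *Nrip1* 92 and 80, the last 2 with intervals that include 1. Of the paracrine effectors 3 were measured and none passed 1.5-fold. *Ptn*, the growth factor pleiotrophin, made up most of their counts with 8178 and 9633 (0.830, 0.806 to 0.855), and *Wnt5a* had 57 and 59. *Tnfsf11*, which encodes RANKL, had 1 count in *Areg*-high and 16 in 0-*Areg* cells (ratio 0.0611, 0.00146 to 0.394), but before pairing it was found in 4 of 240 and 6 of 217 cells, so the counts rested on few cells. *Wnt4* had 15 and 14 counts.

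Genes of the endoplasmic reticulum stress list had a higher summed level in *Areg*-high cells. Of 15 measured genes 2 were past 1.5-fold, *Xbp1* and *Manf*, and none was lower, against 6.02% higher and 7.66% lower over all measured genes. A count of 2 is too small to set against these shares. *Xbp1* is in both this list and that of the estrogen receptor targets, so it is the same call in each. The summed level was 1.26-fold higher (1.20 to 1.32) with a median log2 ratio of 0.32, against -0.03 over all measured genes. Under the alternatives of pairing, scaling and grouping the log2 ratio of the summed level stayed between 0.18 and 0.40. *Manf*, a secreted factor of the reticulum, had 316 and 181 counts (1.71, 1.42 to 2.06), and *Pdia6*, a disulfide isomerase, 767 and 569 (1.32, 1.18 to 1.47). The chaperone gene *Hspa5* (BiP) had 666 and 582 and *Ddit3*, the stress factor CHOP, 9 and 8. Of the heat shock genes 0 of 11 were past 1.5-fold, with a summed ratio of 1.02 (0.973 to 1.07). Cytoplasmic ribosomal protein genes took 11.1% of the counts in paired *Areg*-high and 9.27% in 0-*Areg* cells. Of 81 measured 1 was past 1.5-fold, and their median log2 ratio was 0.27, while the log2 ratio of their summed level ran from 0.05 to 0.31 over the same alternatives, the lowest being against cells with little *Areg* in place of cells at 0.

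Immediate-early genes, which are induced within minutes by growth factors and by tissue dissociation, had a lower summed level in *Areg*-high cells, at 0.863-fold (0.846 to 0.880). Of 25 measured 1 was higher (*Ier5*) and 2 were lower (*Btg2* and *Rhob*), shares near the 6.02% and 7.66% of all measured genes. *Rhob* had 30 and 45 counts and an interval that includes 1 (0.652, 0.397 to 1.06). *Junb* had 2988 and 3931 counts (0.744, 0.709 to 0.780) and *Fos* 3602 and 4159 (0.847, 0.810 to 0.886). *Btg2*, an antiproliferative gene, had 349 and 565 (0.604, 0.527 to 0.692) and *Ier5* 146 and 82 (1.74, 1.32 to 2.31). When cells were paired on the immediate-early share as well as on total count, 110 pairs remained, and 117 genes were higher and 200 lower. The log2 ratio of the summed immediate-early level was then -0.0051, as the pairing requires, and ran down to -0.32 under the others.

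Luminal identity genes were close to equal in their sum, while single members differed in both directions. None of 17 measured keratin, junction and surface genes was past 1.5-fold, against 6.02% higher and 7.66% lower over all measured genes. The summed ratio was 0.991 (0.976 to 1.01). *Krt8*, *Krt18* and *Krt19* are in this list and also defined the keratin-positive cells, so the sum is partly fixed by that step. With all gated cells the summed ratio was 1.05 (1.03 to 1.06). *Krt19* had 5746 and 5392 counts and *Epcam* 2523 and 2448. *Cldn3*, a tight junction protein, had 486 and 712 (0.668, 0.594 to 0.750), *Cd9*, a tetraspanin, 4079 and 3096 (1.29, 1.23 to 1.35), and *Ly6d* 2117 and 1544 (1.34, 1.26 to 1.43). *Tubb5* (257 and 136 counts, ratio 1.85) was the higher of 2 measured genes in the S-phase and mitosis list, the other being *Pcna* with 36 and 51, while *Mki67* had no count in either group. Of the YAP targets *Cyr61* had 216 and 112 counts (1.89, 1.49 to 2.39) and *F3* 618 and 765 (0.790, 0.710 to 0.880). Of cAMP targets 1 was measured, *Rgs2*, with 40 and 25 counts (1.57, 0.927 to 2.69). *Malat1*, a nuclear RNA whose share varies with RNA quality, had 5202 and 6335 counts (0.803, 0.774 to 0.833), and its part in these results was not tested.

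**Figure D5:**
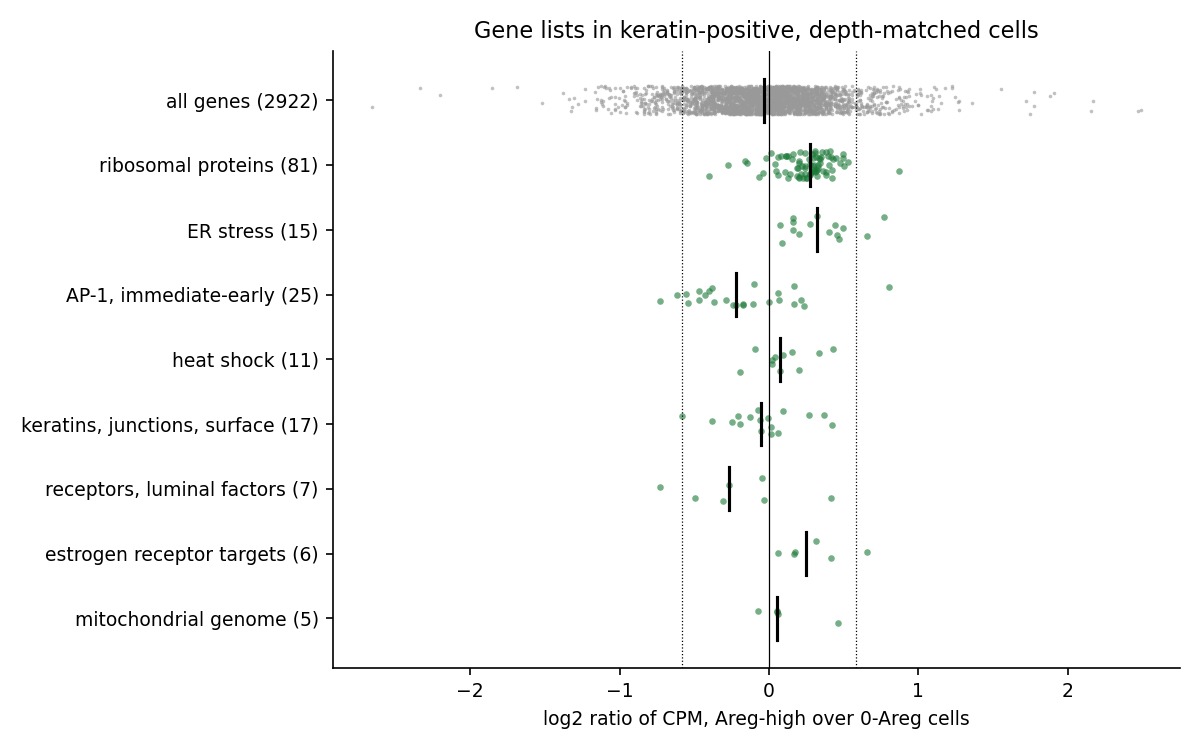
Log2 ratio of CPM in Areg-high over 0-Areg keratin-positive cells for each measured gene of 8 lists (green) and for all measured genes with counts in both groups (grey), with black bars at the medians and dotted lines at 1.5-fold. Ribosomal protein and endoplasmic reticulum (ER) stress genes have medians of 0.27 and 0.32, immediate-early genes one of -0.22 and all genes one of -0.03.

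Promoters of the called genes were searched for the motifs of the *Areg* window, over the 250 bases before the RefSeq start and on both strands, with the half-site counted wherever the full element stood. Of the 176 higher genes 137 had an entry, and TATAAA was found in 22 of them (16.1%), against 10 of 170 lower genes (5.88%), 169 of 2260 measured genes (7.48%) and 14.3% of all 27025 genes in the table. The full element TGACGTCA was found in 5 of the 137 (3.65%), 6 of the 170 (3.53%) and 3.72% of measured genes. TGACG was in 37.2%, 30.6% and 36.0%, and TGANTCA in 8.03%, 7.65% and 5.66%. The genes were chosen by the same counts, so these shares are given as a description only.

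Markers of other cell types were counted in the keratin-positive pairs. The 6 endothelial markers had 4 counts in *Areg*-high and 9 in 0-*Areg* cells and the 8 immune markers 2 and 1. The 8 fibroblast markers summed to 1414 and 823 counts (1.68, 1.54 to 1.83), and among them only *Gsn* and *Dcn* were measured. *Gsn* was detected in 777 of the 963 keratin-positive cells, and *Dcn* had 672 and 455 counts (1.44, 1.28 to 1.63). Whether these counts come from the luminal cells themselves was not tested. Adipocyte markers had 1 count in *Areg*-high and 109 in 0-*Areg* cells, of which 74 were the *Cfd* counts of 1 cell and 26 were of *Car3*. Of the progenitor markers outside the gate *Mfge8*, a milk-fat globule protein, was past 1.5-fold with 117 and 59 counts (1.94, 1.41 to 2.70), and *Plet1* had 177 and 132 (1.31, 1.04 to 1.66). All 14 progenitor markers, those of the gate included, summed to 403 and 307 counts (1.28, 1.10 to 1.49). *Mfge8* and *Plet1* made up most of this sum, and the other markers together were not higher in *Areg*-high cells. The part of these cells in the results was not tested beyond leaving out the keratin-low cells.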

How the data were processed

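Cells of the mouse mammary gland (FVB/NJ, adult) were captured by the study on the 10X Genomics Chromium system, 1 library of total epithelium and 1 of sorted basal cells. The authors deposited whole-number counts of molecules per gene and cell without normalization, made with Cell Ranger (version 1.2.1 in the submitters' processing notes, a later release in the study's methods) against mm10. Such counting drops reads shared by near-identical genes and has already chosen the barcodes that hold cells. The libraries held 3302 and 4771 cells with medians of 2425.5 and 487 counts, and shared 28 barcodes, 7 of them in the gate.

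From these counts, cells were gated, ranked by *Areg* share and paired 1 to 1 by least difference in total (within 10%), in Python 3.11.15 with scipy 1.17.1. Summed counts were divided by the total without *Areg*. Ratios carry exact conditional binomial intervals, CPM exact Poisson intervals and shares exact Clopper-Pearson intervals. No count model was fitted, since 1 library has no replicates. The ratios and intervals were tested on simulated summed counts that held counting error only. Gating, pairing and uneven counts between cells were not simulated, so the test does not bear on them. Doublets were not called beyond the gate, which left out 28 cells for basal and 155 for progenitor counts.

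The genes named are the 15 higher and 15 lower whose interval bound nearest to 1 lay farthest from it, without the gate genes, mitochondrial and ribosomal genes, plus members of 16 lists. 1 of the higher genes is not reported here. The members, lists and gate were chosen with earlier results of these data known. Lists used beside those described are the mitochondrial genome (5 measured, summed ratio 1.03, 0.959 to 1.10) and chemokines (2 measured, 1.75, 1.33 to 2.33). Promoters are RefSeq windows and gene positions GENCODE M21, both on GRCm38, the assembly also called mm10. Alternatives covered the pairing, scaling, gate, *Areg* groups, count minimum and fold.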

Additional observations from a re-analysis of the deposited data

Results flagged for a closer look

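In the sorted basal library, which no comparison here uses, *Areg* had 13 counts, above the 3 that a count of 0 allows. They lay in 5 of 4771 cells (0.105%, exact 95% interval 0.0340 to 0.244%), with up to 5 in a cell, and none of these 5 was among the 4 cells of that library that passed the mature luminal gate. The level was 5.22 CPM at a median of 487 counts per cell, and in the basal-gated cells of the total epithelial library it was 21.1 CPM at a median of 1777. The libraries differ in depth, and whether the counts are free RNA or come from the cells was not tested.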

How the results depend on the processing

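Counts of called genes stayed within 1.5 times under most alternatives, at 118 to 246 higher and 186 to 373 lower with all gated cells and at 125 to 257 higher and 165 to 246 lower with keratin-positive cells. They moved further with the limits that define a call. With at least 20 counts per gene there were 548 higher and 780 lower (keratin-positive 541 and 709), with at least 200 counts 26 and 21 (31 and 23), at a laxer fold 506 and 667 (463 and 624), and at 2-fold 39 and 84 (37 and 43). Lower genes numbered 171 for the highest 10% by *Areg* share with all gated cells and 156 (136 keratin-positive) in cells of at least 3000 counts, where fewer cells and genes entered. In keratin-positive cells 343 were lower without matching, where more genes were measured, and 117 were higher with pairs on total and immediate-early share. Against the lowest *Areg*-positive cells (1 in 3) in place of cells at 0, the log2 ratio of *Pir* was -0.21 with all gated and -0.076 with keratin-positive cells. That of *Cited4* was 0.24 with keratin-positive cells, and that of the summed chemokines and cytokines was 0.47 with all gated cells. Leaving out the keratin-low cells, still against cells at 0, took the all-gated value of that sum to 0.81. Each of these had the opposite sign to the value it replaced. The cause was not tested. Of the named genes' values under the other settings 364 of 461 with all gated and 379 of 447 with keratin-positive cells lay within the counting interval of the value reported. Of the rest, 96 and 66 lay outside it with the same sign, and 1 and 2 had the opposite sign. No paired analysis was possible because the cells of both groups come from 1 library without replicates (the pairs of cells match depth only), and no replicate could be left out for that reason. Under the highest 10% by *Areg* share *Cfd* gave no value, since both groups were at or under 3 counts. Depth limits genes such as *Esr1*, and intervals do not cover the spread between mice.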
